A study of Mus musculus with 6 samples.

Results

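Border-associated macrophages are the resident macrophages of the brain's meninges, perivascular spaces and choroid plexus. They share much of their transcriptome with microglia, the macrophages of the brain tissue itself, but are told from them by endocytic and scavenger receptors that take up glycoproteins, hyaluronan and haemoglobin from fluid and vessel walls. The 10 marker genes described here, Mrc1, Pf4, Lyve1, F13a1, Cd163, Ms4a7, Cbr2, Stab1, Dab2 and Clec12a, were chosen by name. The choice was made with earlier results of these data known. All 10 were found among the 24421 genes of the deposited table, and all 10 reached the level required for testing (a mean of at least 10 normalized counts over the 6 libraries), so none was lost to that filter. None had 0 reads in any library.

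The libraries came from mouse brain cells sorted as astrocytes. CD51-Flp mice had received AAV-GFAP-FSF-hM3D-mCherry, a viral vector in which the GFAP promoter drives the Gq-coupled designer receptor hM3D and the fluorescent protein mCherry once Flp has acted, and both groups carried it. One group was given clozapine-N-oxide (CNO), which activates hM3D, and the other saline, with 2 injections daily between postnatal days 7 and 21, after which cells carrying mCherry were collected from cortex by flow sorting at postnatal day 21. There were 3 CNO libraries (replicates 1, 2 and 3) and 3 saline libraries (replicates 3, 4 and 5). No group received CNO without the receptor, so an action of CNO itself and activation of hM3D cannot be told apart. The labels do not say whether a library came from 1 animal or a pool, so p-values reflect the spread among these 6 libraries alone.

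Recovered reads ran from 3908076 in CNO 1 to 19224186 in CNO 2, and from 12010901 to 19052161 in saline. Of the 13028 tested genes, 8.93% to 35.2% were at 0 reads in a CNO library, highest in CNO 1, and 3.39% to 3.88% in a saline library. All 10 astrocyte markers examined had reads in every library and together took 0.999% to 3.10% of reads, although Gfap itself ranged from 4.23 normalized counts in CNO 1 (1 read) to 1307 in saline 3. Oligodendrocyte markers, 8 in number, took 11.1% to 24.4% of reads in CNO and 5.30% to 7.78% in saline. The 10 border-associated macrophage markers took 0.489% to 0.759% in CNO and 0.368% to 0.549% in saline. The sorted material therefore held macrophage transcripts in every library, and in bulk RNA fewer or more cells of a type cannot be told apart from less or more RNA per cell. A level here is a normalized count, the number of reads of a gene after the authors' correction for library size.

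Promoter sequences were available for 9 of the 10 genes, with 12 start sites (RefSeq, GRCm38.p6, 250 bases before to 50 after the start). Those of Mrc1, Pf4 and the upstream start of Dab2 are shown, since the CNO and saline libraries did not overlap for these genes. Each reads 5′ to 3′ on the gene's own strand, and capitals mark the PU box, GAGGAA or its reverse complement TTCCTC, the core element bound by PU.1, a transcription factor of macrophages. Mrc1 lies at chr2:14229164-14229463 (plus strand), Pf4 at chr5:90772185-90772484 (plus strand) and Dab2 at chr15:6299539-6299838 (plus strand).
Mrc1: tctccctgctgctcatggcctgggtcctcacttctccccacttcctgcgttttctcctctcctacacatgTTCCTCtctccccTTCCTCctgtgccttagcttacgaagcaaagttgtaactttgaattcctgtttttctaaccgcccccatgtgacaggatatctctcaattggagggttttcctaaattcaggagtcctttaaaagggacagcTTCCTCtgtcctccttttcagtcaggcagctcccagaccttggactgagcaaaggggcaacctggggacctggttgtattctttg
Pf4: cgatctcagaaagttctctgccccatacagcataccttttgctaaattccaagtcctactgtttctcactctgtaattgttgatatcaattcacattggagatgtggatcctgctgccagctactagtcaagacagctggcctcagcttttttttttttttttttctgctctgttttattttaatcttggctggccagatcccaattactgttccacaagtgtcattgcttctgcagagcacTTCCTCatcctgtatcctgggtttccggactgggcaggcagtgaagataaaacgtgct
Dab2: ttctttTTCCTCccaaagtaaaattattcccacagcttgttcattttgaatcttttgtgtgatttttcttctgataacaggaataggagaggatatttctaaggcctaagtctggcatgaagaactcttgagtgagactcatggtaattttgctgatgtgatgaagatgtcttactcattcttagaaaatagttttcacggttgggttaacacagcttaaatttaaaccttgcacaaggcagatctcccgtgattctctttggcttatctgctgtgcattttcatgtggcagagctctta
The Mrc1 window held 3 PU boxes, the Pf4 window 1 that began 8 bases before the start, and the Dab2 window 1 near its upstream edge. Over both strands, 10 of the 12 marker promoters (8 of the 9 genes, all but Cd163) held a PU box, against 28.3% of all 32851 promoters and 31.3% of genes. The half-site TGCTGA of Maf factors, no match of which overlapped a PU box, was present in 3 of the 12 (Cbr2, Stab1 and the upstream start of Dab2), against 19.5% of all promoters. These matches describe letters in a window and are not evidence of binding.

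Compared per kilobase of exon (union of GENCODE M21 exons), Mrc1 and Pf4 were the most abundant of the markers. In saline, Mrc1 stood at 2763 ± 559 normalized counts per kb (mean ± SD, n = 3) and Pf4 at 2402 ± 1043, which did not differ beyond their spread. Lyve1 (1280 ± 393 per kb, from 913 to 1695) and Dab2 (1138 ± 103) followed, then Cbr2 (599 ± 204), F13a1 (520.2 ± 150), Cd163 (386 ± 257) and Stab1 (384 ± 190.2), 4 genes whose ranges overlapped. Ms4a7 (152 ± 19.0) and Clec12a (49.7 ± 23.4) were lowest and did not overlap each other. In CNO the order began with Pf4 (6919 ± 874 per kb), Mrc1 (6053 ± 2420), Dab2 (3553 ± 1357) and Lyve1 (2925 ± 864), again with overlap between neighbours. For scale, Csf1r, the receptor for the growth factor that both microglia and border macrophages need, stood at 6476 ± 67.2 per kb in saline and 7853 ± 4125 in CNO.

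No marker passed the test across all genes, but 4 of the 10, Mrc1, Lyve1, Dab2 and Pf4, were separated between the groups: each of their CNO values lay above all 3 saline values, with group means 2.19- to 3.12-fold apart. Such separation was found in 4.57% of all tested genes, in 7.95% of those with a read in each library, and in 16.4% of the 2239 whose mean was 1000 or more, a level that all 4 exceed. The limma test, run on log2(normalized count + 1) over 13028 genes with p-values adjusted by the Benjamini-Hochberg method, called 0 of 10 markers at an adjusted p under 0.05, against 0.0154% of all tested genes (2 genes, Mbp and Mobp). At an unadjusted p under 0.05 it placed 5 markers higher and 0 lower, where 2.28% of all tested genes were higher and 7.25% lower. With only genes read in every library tested, again 5 markers were higher, and 315 of 7416 genes were higher and 185 lower. The count of higher markers was 1 with library totals in place of the authors' size factors, 1 with quantile scaling and 0 without the variance trend. In those settings 60, 493 and 95 of the 13028 genes were higher. On recovered reads edgeR, DESeq2 and limma-voom also called 0 markers, where they called 0%, 1.91% and 0.123% of all tested genes, and had 4, 2 and 5 markers higher at an unadjusted p under 0.05 (3.63%, 4.24% and 2.31% of tested genes). No marker was lower at that threshold in these 3 tests, where 5.70%, 7.15% and 8.99% of tested genes were. With array weights and in edgeR on any gene with a read, 0 markers were called as well, against 0.0844% and 0.0966% of tested genes.

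**Figure D1:**
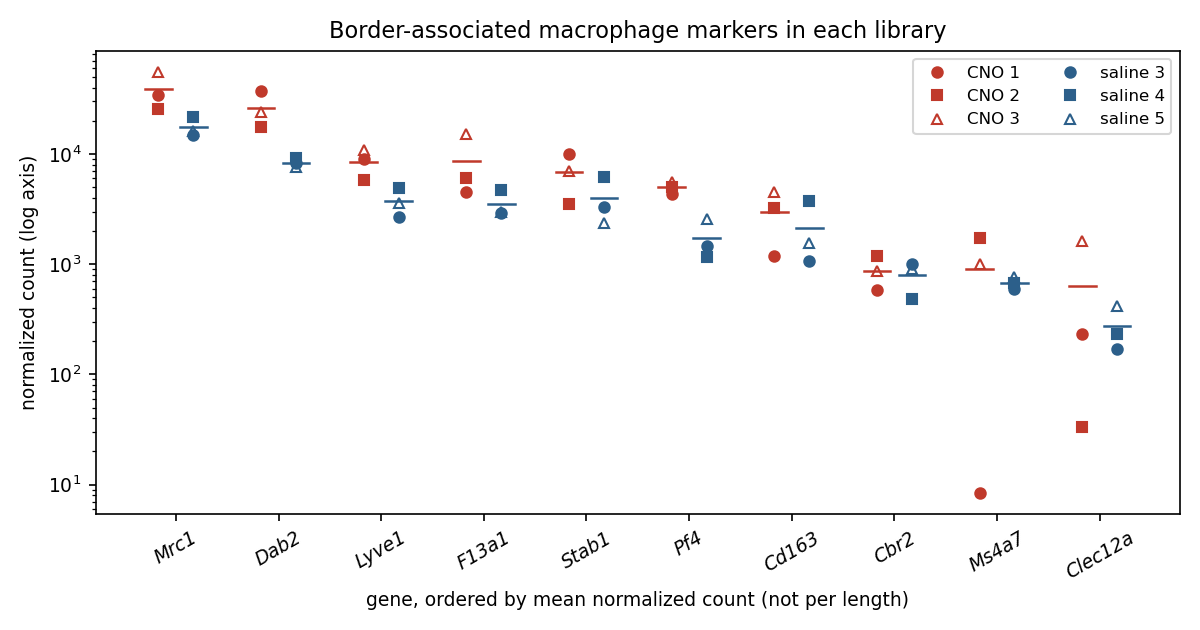
Normalized count of each of the 10 markers (log axis) in the 3 CNO libraries (red) and 3 saline libraries (blue), with a bar at each group mean. The red points of Mrc1, Dab2, Lyve1 and Pf4 all lie above the blue ones, while the CNO points of Ms4a7 and Clec12a reach from far below to above the saline points.

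Among the endocytic receptors, Mrc1 and Lyve1 were separated between groups. Mrc1 encodes the mannose receptor CD206, which takes up glycoproteins with terminal mannose; the gene (ENSMUSG00000026712.3) spans 14229392 to 14332057 on the plus strand of chromosome 2. Its level was 34449.9, 25625 and 55623 normalized counts in CNO 1, 2 and 3 and 14867, 21632 and 16311 in saline 3, 4 and 5. The lowest CNO library, CNO 2, lay above the highest saline library, saline 4. The means were 38566 ± 15417 and 17603 ± 3563, a ratio of 2.19, with a log2 fold change of 1.08 ± 0.33 (SE; limma adjusted p = 0.488). Lyve1 encodes a hyaluronan receptor shared with lymphatic endothelium, and lies on the minus strand of chromosome 7, from 110850607 to 110863239 (ENSMUSG00000030787.4). It stood at 9039, 5801 and 10770.5 in CNO and at 2666, 4949 and 3591 in saline, with CNO 2 and saline 4 again nearest to each other. The means were 8537 ± 2522 and 3735 ± 1149 (ratio 2.29, log2 fold change 1.19 ± 0.42, limma adjusted p = 0.488). Of the 5 lymphatic endothelial markers examined, 4 were tested, limma called 0 and all 5 overlapped between groups. Ccl21a was at 0 reads in all 6 libraries, Pdpn had reads in each, Prox1 had 130 to 336 reads in all but CNO 1, and Flt4 was highest in CNO 3 (376, or 388 reads). The list took at most 0.00427% of reads in any library, against 0.368% or more for the 10 border macrophage markers, and its part in the Lyve1 values was not tested.

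The scavenger receptors Cd163 and Stab1 overlapped between groups. Cd163, which clears haemoglobin bound to haptoglobin, was 1192, 3244 and 4535 in CNO and 1068, 3704 and 1557 in saline, so that the group ranges nearly coincided. Its log2 fold change was 0.50 ± 0.66 (limma adjusted p = 0.770) with the authors' size factors and -0.20 with library totals in their place. Stab1 encodes stabilin-1, a receptor for modified lipoproteins and extracellular proteins. It was 10058, 3490.1 and 6939 in CNO and 3332, 6146 and 2384 in saline, lowest in CNO 2 among its group and highest in saline 4 among the controls (0.77 ± 0.51, adjusted p = 0.617). Stab1 shares exonic bases with Nt5dc2 on the other strand, and the strand handling of the counting is not given, so reads of the 2 genes cannot be told apart there.

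Dab2 had the smallest p of the 10. It encodes an adaptor that links cargo receptors to clathrin, and it is made by other cell types as well as macrophages. The gene (ENSMUSG00000022150.16) spans 6299788 to 6440712 on the plus strand of chromosome 15. Its level was 36969, 17414 and 23871 in CNO and 8285, 9146 and 7641 in saline. All 3 saline libraries lay within a narrow band, and the lowest CNO library, CNO 2, stood well above it. The means were 26085 ± 9963 and 8357 ± 755, a ratio of 3.12, with a log2 fold change of 1.58 ± 0.34 (limma unadjusted p = 6.5e-04, adjusted p = 0.488). Its adjusted p ran from 0.0799 in limma-voom to 0.648 with quantile scaling over the 21 other settings tried. Dab2 overlaps with the predicted gene Gm18888 on the other strand.

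Both secreted products averaged higher in CNO, and Pf4 did so without overlap. Pf4 encodes the chemokine CXCL4, which is also stored in platelets, from a short gene on the plus strand of chromosome 5 (ENSMUSG00000029373.7, 90772435 to 90773383). It was 4336, 5036 and 5594 in CNO and 1446, 1165 and 2585 in saline, so the lowest CNO library, CNO 1, lay above the highest saline library, saline 5. The log2 fold change of 1.60 ± 0.48 was the highest of the 10 and within 1 SE of that of Dab2 (ratio of means 2.88, limma adjusted p = 0.488). F13a1, the catalytic subunit of coagulation factor XIII, was 4492, 6057 and 15117 in CNO and 2899, 4669 and 2950.2 in saline, where CNO 1 lay just under saline 4 and CNO 3 far above the rest (1.12 ± 0.50, adjusted p = 0.522). It overlaps with the predicted gene Gm30489 on the other strand.

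Platelets and megakaryocytes, a further source of Pf4 and F13a1 transcripts, were examined through 11 other markers. Of these, 6 to 9 were at 0 reads in each library. Itga2b, Gp5, Treml1 and Tubb1 were at 0 in all 6 libraries, and Ppbp, the chemokine stored with Pf4, had reads in CNO 2 alone (37.7 normalized counts). The list took 1.02e-04% to 0.00169% of reads in CNO and 6.38e-04% to 0.00112% in saline. Among 11 monocyte and neutrophil genes, 7 to 9 were at 0 reads in each library. S100a8, S100a9, Chil3, Camp and Retnlg had 0 reads in all 6 libraries, Ly6c2 reached 13.6 at most, and only Fn1 and Vcan, which many cell types make, passed the filter for testing. The 7 dendritic cell markers took 4.20e-04% to 0.00129% of reads. Clec9a and Ccr7 were at 0 reads in all 6 libraries, Xcr1 had reads in each, and limma called 0 of the 4 tested. Itgax was separated with CNO lower (0, 5.18 and 0, against 90.7, 60.0 and 15.6 in saline), as were 12.5% of all tested genes. Endothelial markers (8 genes) took 0.00318% to 0.0418% of reads and fibroblast and mural markers (10 genes) 0.0155% to 0.0396%, with limma calling 0 of the 8 and 0 of the 9 tested. The part of these cells in the marker values was not tested.

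The remaining markers did not separate the groups, and their direction changed with single libraries, with the test or with the scaling. Ms4a7, a membrane protein of the MS4A family that marks border macrophages against microglia, was 8.45, 1728 and 993 in CNO and 590.1, 677 and 759 in saline. Only 2 reads were counted in CNO 1 (exact Poisson 95% interval 1.02 to 30.5 normalized counts, counting error only), while CNO 2 and 3 both exceeded every saline library. Its log2 fold change was -1.41 ± 1.62 (limma adjusted p = 0.744) with all libraries and 0.96 without CNO 1, and edgeR (0.37) and DESeq2 (0.43) also placed it above 0. Clec12a, an inhibitory lectin receptor of myeloid cells, was 232, 33.3 and 1632 in CNO and 171, 235 and 420 in saline, so CNO held both the lowest and the highest value (-0.13 ± 1.38, adjusted p = 0.978). Without CNO 2 its log2 fold change was 1.26 and without saline 5 it was 0.23. Cbr2, a carbonyl reductase, was 583, 1175 and 863 in CNO and 998, 487 and 898 in saline (0.15 ± 0.68, adjusted p = 0.945), and it lay at -0.096 without CNO 2, at -0.17 without saline 4 and at -0.55 with library totals.

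**Figure D2:**
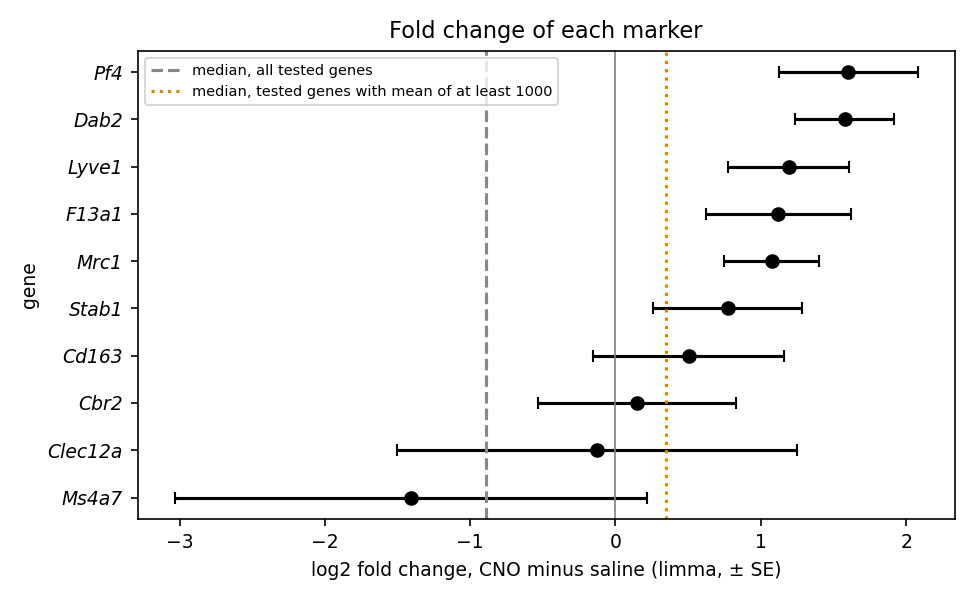
Log2 fold change of each marker, CNO minus saline, from limma (point) with its SE (bar). Of the 10 points, 8 lie above 0 (6 with library totals or quantile scaling, where Cd163 and Cbr2 go below), and Ms4a7 and Clec12a have the widest bars. The dashed line is the median of all tested genes (-0.89) and the dotted line that of tested genes with a mean of at least 1000 (0.35).

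The median log2 fold change of the 10 markers was 0.92, with 8 above 0 and 2 below (6 above 0 with library totals or quantile scaling), against a median of -0.89 and 31.7% above 0 over all tested genes. This background moves with level: it was -0.09 and 46.9% for genes with a read in each library, and 0.35 and 68.7% for those whose mean was 1000 or more. By the ratio of group means all 10 markers exceeded 1, as did 6510 of the 13028 tested genes. The scaling of libraries set the size of the difference. With library totals in place of the authors' size factors, the median of all tested genes moved from -0.89 to -1.52 and that of the markers to 0.22, so the markers lay 1.81 above all genes with the authors' factors and 1.75 above with totals. With quantile scaling they lay 0.26 above. Under either of these scalings only Dab2 was separated (against 1.13% and 6.39% of tested genes), while TMM scaling gave 4 separated markers (3.78%). With library totals and quantile scaling, Mrc1 had log2 fold changes of 0.38 and 0.28, and Cd163 and Cbr2 turned below 0. Fold changes of Mrc1, Pf4, Lyve1, F13a1, Stab1 and Dab2 stayed above 0 in all 21 other settings.

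**Figure D3:**
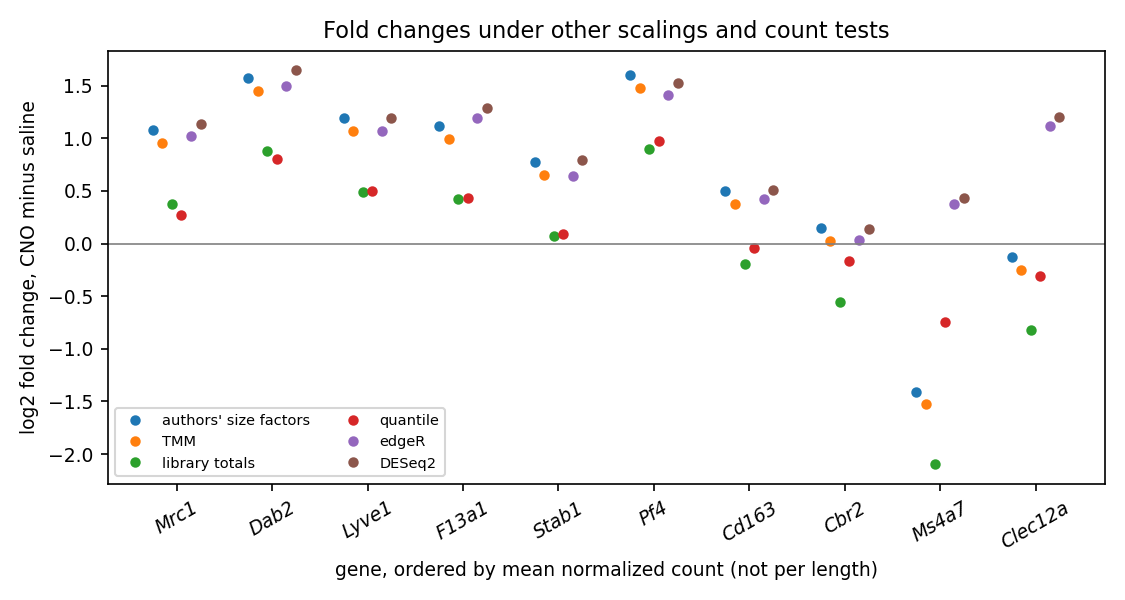
Log2 fold change of each marker, CNO minus saline, in limma under 4 ways of scaling the libraries and in edgeR and DESeq2. Values under library totals and quantile scaling lie lower than the rest for the 6 most abundant genes, without going below 0, and put Cd163 and Cbr2 below 0. Ms4a7 and Clec12a lie above 0 in edgeR and DESeq2 but below it in limma.

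A ratio within each library, which scaling by a single factor per library leaves unchanged, set the markers against microglia (it was not computed under quantile scaling). Of the 14 homeostatic microglia markers, 13 (among them P2ry12, Fcrls, Gpr34 and Cx3cr1) overlapped between groups. Sall1 was lower in each CNO library (478, 462 and 852, against 1854, 1721 and 2443 in saline), and 12.5% of tested genes were separated in this direction. The summed level of the 14 averaged 87909.7 ± 41791 normalized counts in CNO and 91296 ± 28721 in saline, and limma called 0 of 14 (1 at an unadjusted p under 0.05, in the lower direction). As a share of reads the 14 took 0.485%, 0.355% and 0.802% in CNO and 0.777%, 0.758% and 1.30% in saline, with overlap. The ratio of mean shares was 0.580 for these genes and 1.40 for the 10 border macrophage markers, so both enter the ratio below. The summed level of the 10 border macrophage markers was 1.26, 1.38 and 0.947 times that of the microglia markers in CNO 1, 2 and 3 and 0.474, 0.724 and 0.314 times in saline 3, 4 and 5. The groups did not overlap, and the means were 1.2 ± 0.22 and 0.504 ± 0.207, a 2.37-fold ratio of means. The same measure also separated the groups for other cell types, so the separation is not particular to the border macrophage markers. Oligodendrocyte markers stood at 22.9, 68.7 and 23.4 times the microglia markers in CNO and at 6.8, 8.0 and 6.0 times in saline (5.52-fold), and fibroblast and mural markers at 0.0429, 0.0449 and 0.0494 times against 0.0262, 0.0204 and 0.0259 times (1.89-fold). Leaving out each library in turn gave 2.0-fold for the border macrophage markers (without saline 5) to 3.03-fold (without saline 4). Mrc1 and Dab2 made up 58.3% to 70.5% of the marker sum in each library, and without Mrc1 the ratio of means was 2.51.

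The summed level of genes that microglia and border macrophages share did not separate the groups on this measure. Summed over 18 such genes, including Csf1r, C1qb, Cd68 and Ctss, the level relative to microglia markers was 1.61, 1.51 and 1.65 in CNO and 1.82, 1.86 and 1.25 in saline, with overlap (ratio of means 0.969). Their summed normalized counts overlapped too (0.988). As a share of reads they were separated with CNO lower, at 0.783%, 0.536% and 1.32% against 1.41%, 1.41% and 1.62% (0.595). Taken singly, Fcer1g was separated with CNO higher (1 of 18, against 4.57% of tested genes) and Trem2 with CNO lower (1 of 18, against 12.5%). These 2 genes were named after their values were seen. Limma called 0 of the 18, with 0 higher and 0 lower at an unadjusted p under 0.05. Set against Csf1r alone, Mrc1 stood at 0.735, 1.23 and 0.813 of the Csf1r level in CNO and at 0.393, 0.583 and 0.438 in saline. Mrc1, Pf4, Lyve1 and Dab2 were separated between groups by this measure too, as were 2.79% of tested genes. Markers of microglia, astrocytes, oligodendrocytes, and fibroblast and mural cells differed among these libraries as given above, and their part in the ratio was not tested.

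**Figure D4:**
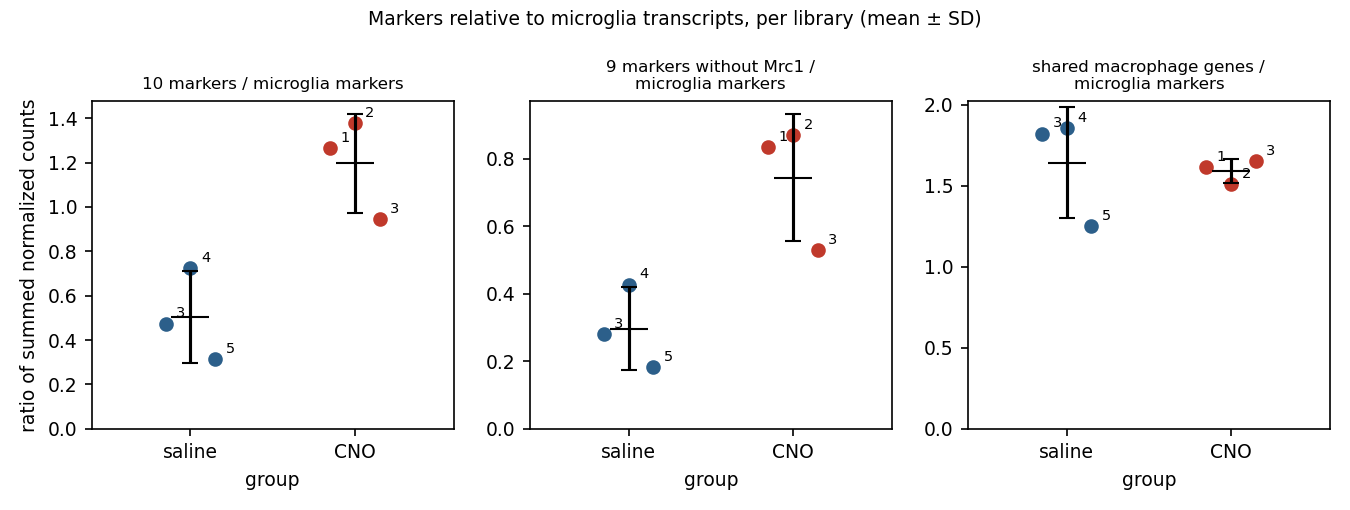
Ratio of summed normalized counts in each library (points numbered by replicate), with group mean ± SD, for the 10 markers, for 9 without Mrc1 and for 18 shared macrophage genes, each divided by 14 microglia markers. The CNO points lie above all saline points in the first 2 panels and between them in the last.

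Other genes ascribed to border macrophages were read from a list of 25, of which 24 were in the table and 22 tested. Limma called 0, with 2 higher and 1 lower at an unadjusted p under 0.05 (2.28% and 7.25% of tested genes). The median log2 fold change was 0.25 (14 above 0, 8 below). As a share of reads the list overlapped between groups (ratio of mean shares 1.03). Relative to the microglia markers it stood at 0.558, 0.815 and 0.523 in CNO and 0.349, 0.475 and 0.247 in saline, without overlap (1.77-fold). The most abundant was Maf, a transcription factor of mature macrophages that is found in other cells too, at 32976 ± 8829 in CNO and 20132 ± 1828 in saline (0.68 ± 0.28, adjusted p = 0.50). Next came the fatty acid transporter Cd36 (2918 ± 755 against 1745 ± 238), the iron exporter Slc40a1 (2148 ± 1681 against 1580 ± 649.8) and the chemokine Ccl7 (1719 ± 69.4 against 1654 ± 734). Maf, Cd36, Msr1 and Ms4a6b were separated with CNO higher (4 of 22, against 4.57% of tested genes). Of tested genes with a mean of 1000 or more, a level that Maf, Cd36 and Msr1 exceed, 16.4% were separated in this direction. Timd4, a phosphatidylserine receptor of resident macrophages, had 0 reads in each CNO library and stood at 168, 119 and 30.2 in saline. It was 1 of 22 separated with CNO lower, against 12.5% of tested genes. Msr1, Ms4a6b and Timd4 were named after their values were seen.

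Genes of the MHC class II-high state of border macrophages mostly had a log2 fold change below 0, but were mixed by the ratio of group means. All 9 were tested, and 7 had a log2 fold change below 0. The 2 above 0 were Ccr2 (0.0044) and Cd52 (0.081), where 31.7% of all tested genes lay above 0. The median of the 9 was -2.75 against -0.89 over all tested genes. These are low genes: 5, 0 and 4 of them were at 0 reads in CNO 1, 2 and 3, and 1, 1 and 0 in saline 3, 4 and 5. Of all tested genes, 35.2%, 8.93% and 20.1% were at 0 reads in CNO 1, 2 and 3. The background moves with level, and none of like level was computed for these genes, so a general loss of low genes in CNO was not set apart. Limma called 0, and an unadjusted p under 0.05 was reached by 3, all lower in CNO (7.25% of tested genes). H2-Ab1, an MHC class II chain, was at 0, 8.88 and 0 in CNO and at 1143, 454 and 263 in saline. Cd74, the invariant chain that accompanies MHC class II, was at 80.3, 0.740 and 0.970 in CNO and 1988, 156 and 200.3 in saline. Together with H2-Eb1 these were separated with CNO lower (3 of 9, against 12.5% of tested genes), while H2-Aa (917, 74.7 and 0.970 in CNO, 616, 312 and 216 in saline), Ccr2 and Cd52 overlapped. By the ratio of group means Cd52 (4.13), Ccr2 (2.37) and Ciita (1.74) were higher in CNO, each through 1 high library. The summed level of the 9 genes relative to microglia markers overlapped between groups (ratio of means 0.939).

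Within the markers, Lyve1 followed Mrc1 most closely across the libraries. Likeness was measured as the root mean square difference between log2 profiles, each centred on its own mean over the 6 libraries, among 6799 genes whose mean reached 100 and that had a read in each library. Lyve1 had rank 3, at 0.177. The nearest genes that are not markers were Pisd (0.155), Osbpl9 (0.158), Cp (0.179), Hdgfrp3 (0.190) and Ubxn4 (0.198). Among the other markers the distance was 0.334 for F13a1, 0.471 for Dab2, 0.503 for Stab1 and 0.594 for Pf4, then 0.721 for Cd163, 0.838 for Cbr2, 1.48 for Clec12a and 2.70 for Ms4a7. Cp (1668 in CNO and 938 in saline by group means) and Ubxn4 overlapped between groups. Pisd, Osbpl9 and Hdgfrp3 were separated with CNO higher, as were 4.57% of all tested genes. They were picked for likeness to Mrc1, which is itself separated, so this is no separate result. Genes in 1 library share its depth and scaling, so these distances are a description over 6 points.

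**Figure D5:**
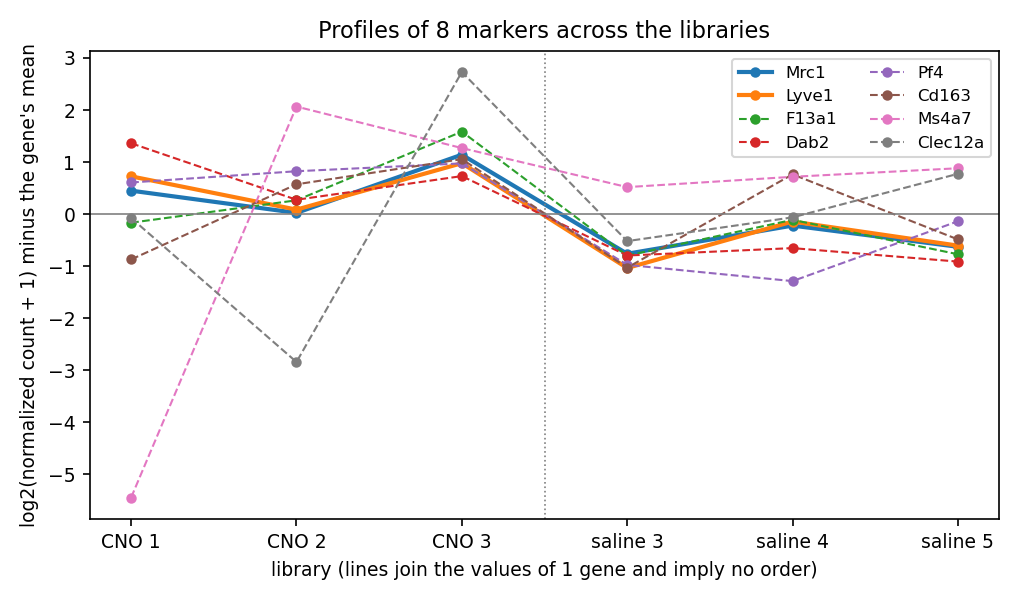
Log2 level of 8 markers in each library, centred on each gene's mean over the 6 libraries. The solid lines of Mrc1 and Lyve1 run close together (root mean square difference 0.177), while Ms4a7 drops in CNO 1 and Clec12a in CNO 2.

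The libraries also differed in Xist, the transcript of the inactive X chromosome, which exceeded 10000 in CNO 2, CNO 3 and saline 4. Saline 4 held Y-linked Ddx3y as well (213, against 6.66 and 1.94 in CNO 2 and 3). Within the high class and within the low class, each holding 1 library of one group and 2 of the other, Mrc1, Pf4, Lyve1, F13a1 and Dab2 were higher in CNO. For Mrc1, Pf4, Lyve1 and Dab2 this order follows from their separation over all 6 libraries, so the split adds nothing for them. F13a1 overlapped over all 6 libraries only through CNO 1 (4492) lying below saline 4 (4669). Those libraries fall in different classes, so the split leaves that pair out and adds nothing for F13a1 either. For Mrc1 the ratio of means was 1.88 in the high class and 2.21 in the low class, and for Dab2 2.26 and 4.64. Ms4a7 and Cbr2 were higher in CNO in the high class (2.01 and 2.09) and lower in the low class (0.0125 and 0.615), whose CNO library is CNO 1 alone. The marker sum relative to microglia was 1.38 and 0.947 against 0.724 in the high class, and 1.26 against 0.474 and 0.314 in the low class. That order too follows from its separation over all 6 libraries. With this class as a term in limma, 0 of 10 markers passed (adjusted p from 0.294 for Dab2 to 0.983 for Cd163).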

How the data were processed

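RNA from 6 libraries was analysed, made from 10 ng of total RNA each. The submitters' processing notes name the build mm10 and, without saying what each did, STAR 2.5.0a, DESeq2 1.20.0, Trimmomatic 0.4, MultiQC 0.9 and FastQC 0.10.1. Which counter, gene annotation and strand setting were used was not given in the sources used here. Each deposited value is a signal: the reads of a gene after scaling by the authors with a single factor for the whole library. Within every library 100% of values were whole multiples of 1 step (tolerance 1e-06), and division by it recovered whole reads. All 6 columns matched a library by title and 0 did not.

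Each gene was tested with limma 3.58.1 in R 4.3.3 on log2(normalized count + 1) over the 13028 genes whose mean reached 10, with a variance trend, 2-sided tests and Benjamini-Hochberg adjustment at 0.05 over all tested genes. A log2 fold change is the difference of mean log2 values (CNO minus saline), so it can differ in sign from the ratio of means. For low genes the 1 added to each count can shrink it, and a library at 0 reads can enlarge it. Crybb1, at 0 reads in CNO 1, had a log2 fold change of -2.85 at a ratio of means of 0.750. edgeR 4.0.16, DESeq2 1.42.0 and limma-voom on recovered reads, other pseudocounts, filters and scalings, array weights, an Xist term and each library left out were alternatives. The scripts were tested on simulated data. Gene models and coordinates are from GENCODE M21 (GRCm38, the assembly of mm10), promoters from RefSeq.

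The 10 markers and the comparison lists were chosen with earlier results of these data known, so lists get counts and medians and no test. Named from the lists were the most abundant members (up to 4 per list, up to 6 from the microglia and shared macrophage lists) and the 5 genes nearest to Mrc1 in profile. Further genes at 0 or separated between groups, and genes of the cell type lists below those ranks, were named after their values were seen. Reads carry no molecular identifiers, so intervals cover counting error only. Figures were drawn with matplotlib 3.10.9.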

Additional observations from a re-analysis of the deposited data

How the results depend on the processing

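No marker passed an adjusted p of 0.05 in any of the 21 other settings, or of 0.1 in the main test. Of 210 marker fold changes under these settings, 194 kept their direction and 16 reversed. Cd163 reversed with library totals (-0.20), quantile scaling (-0.044) and the Xist term (-0.032). Cbr2 reversed with library totals (-0.55), quantile scaling (-0.16), without CNO 2 (-0.096) and without saline 4 (-0.17). Ms4a7 reversed in edgeR (0.37, and 0.46 on any gene with a read), DESeq2 (0.43) and without CNO 1 (0.96). Clec12a reversed in edgeR (1.12, and 1.2 on any gene with a read), DESeq2 (1.2), without CNO 2 (1.26) and without saline 5 (0.23). With each library left out, Ms4a7 ran from -2.80 to 0.96, Cbr2 from -0.17 to 0.41 and Clec12a from -1.52 to 1.26. Apart from the settings without a library, the cause was not tested. The median of the markers moved to 0.22 with library totals and 0.18 with quantile scaling, and ran from 0.65 to 1.27 with each library left out. The count of separated markers, examined under other settings after the data were seen, was 1 with library totals and 1 with quantile scaling against 4. It was 4 to 6 with each library left out, where 5.86% to 10.9% of tested genes were separated. Leaving out a library cannot undo a separation, so this count could not fall below 4 and is no check on it.

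Genes called over all tested genes were 2 in the main test. They were 0 with a mean filter of 50, with only genes read in every library, with library totals, with quantile scaling, without the variance trend, in edgeR, and with each library left out (0 to 0). They were 11 with array weights, 16 in limma-voom, 16 in edgeR on any gene with a read and 249 in DESeq2. No paired analysis was possible because the groups share only replicate number 3. CNO 1, with 3908076 reads, limits what can be said of the low markers: 1 read there is worth 4.23 normalized counts.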
